A study of Mus musculus with 6 samples.

Results

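Beta cells keep a small set of otherwise widely expressed genes switched off, a group known as disallowed genes. Members of this group that were followed here are Ldha, Slc16a1, Acot7, Oat, Mgst1, Cat, Zyx, Fcgrt, Maf and Lmo4. These 10 genes were taken by symbol from a list that was drawn up with earlier results of these data known, out of 55536 genes in the count table. All 10 were among the 25210 genes with at least 10 counts in total that entered the test, and all 10 had a mean of at least 50 normalized counts.

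The rationale for silencing is best known for lactate. A beta cell couples glucose to insulin release by sending nearly all pyruvate into mitochondria, and lactate dehydrogenase A (Ldha) together with the plasma membrane carrier of pyruvate and lactate (Slc16a1, also called MCT1) would let pyruvate escape or let circulating lactate and pyruvate act as a false signal for insulin. Forced expression or loss of silencing of Slc16a1 in beta cells is known to cause insulin release during exercise. Other members serve fatty acid, amino acid and peroxide metabolism, the cytoskeleton and transcription. Many other cells of the islet and of the surrounding pancreas express these genes, so a whole-islet sample holds their transcripts from several sources.

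Polyadenylated RNA of isolated mouse pancreatic islets was sequenced in 6 libraries, 3 from each of 2 genotypes. Control mice were Klf4+/+;Gcg-iCre and knockout mice were Klf4fl/fl;Gcg-iCre, all C57B1/6J as the labels spell it, so both groups carried the Cre driver and the comparison is of the floxed Klf4 alleles. Gcg-iCre acts where glucagon is made, so the deletion is directed to alpha cells, while the RNA came from all cells of the islet. The labels give neither age nor sex, and do not say that the libraries of a group come from separate animals, so p-values measure the spread between these libraries. The study addressed gene regulation by KLF4, a zinc finger transcription factor, in alpha cells, and the comparison here shows whether the silenced genes differed in the islets of these mice. Libraries held between 101277200 and 110243918 counts.

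Facts on the libraries as a whole touch the results below. Klf4 itself averaged 2681 ± 592 normalized counts in the control group and 2386 ± 137 among knockouts (SD, n = 3 each), with overlapping ranges (DESeq2 adjusted p = 0.774). Xist ran from 77938 to 108105 normalized counts in controls and from 12.4 to 30.2 in knockouts, while the Y-linked gene Ddx3y was at 0 in each control and at 5599 to 6265 in knockouts. Sex-linked transcripts and genotype divide the 6 libraries identically and cannot be told apart, so each difference given below holds for both. In knockout replicate 1 the summed level of 15 hepatocyte genes was 129326 normalized counts, against 3452 to 3938 in controls, and this library stood farthest from the others on the first principal component, at 62.5 where controls lay between -25.8 and -24.3. In a bulk sample, fewer cells of a type and less RNA per cell cannot be told apart.

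Expressed per length, the 10 genes were not near the bottom of the islet transcriptome as a whole. As CPM per kilobase (counts scaled to the library total and to the length of merged exons), the mean level over all 6 libraries was 7.38 for Cat, 6.26 for Oat, 5.79 for Ldha, 5.28 for Fcgrt, 4.12 for Acot7 and 3.91 for Zyx. Below the median protein-coding gene, at 3.22, were Mgst1 at 2.44, Lmo4 at 1.99, Maf at 0.588 and Slc16a1 at 0.442 on the same scale. Thus 6 of 10 ranked above and 4 below the median of 16634 protein-coding genes. Only protein-coding genes with at least 10 counts in total were ranked, so median and percentiles refer to these. On this scale Cat ranked at percentile 70.2 and Slc16a1 at percentile 24.2. With the longest transcript as the length, Ldha (10.6) came before Cat (7.38), and again 6 of the 10 ranked above the median. Neighbours in this order had overlapping ranges over the libraries in 8 of 9 pairs, the exception being Lmo4 (1.84 to 2.20) and Maf (0.479 to 0.774). These whole-islet levels do not show in which cells a transcript was made, so whether beta cells silenced these genes was not testable here.

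**Figure D1:**
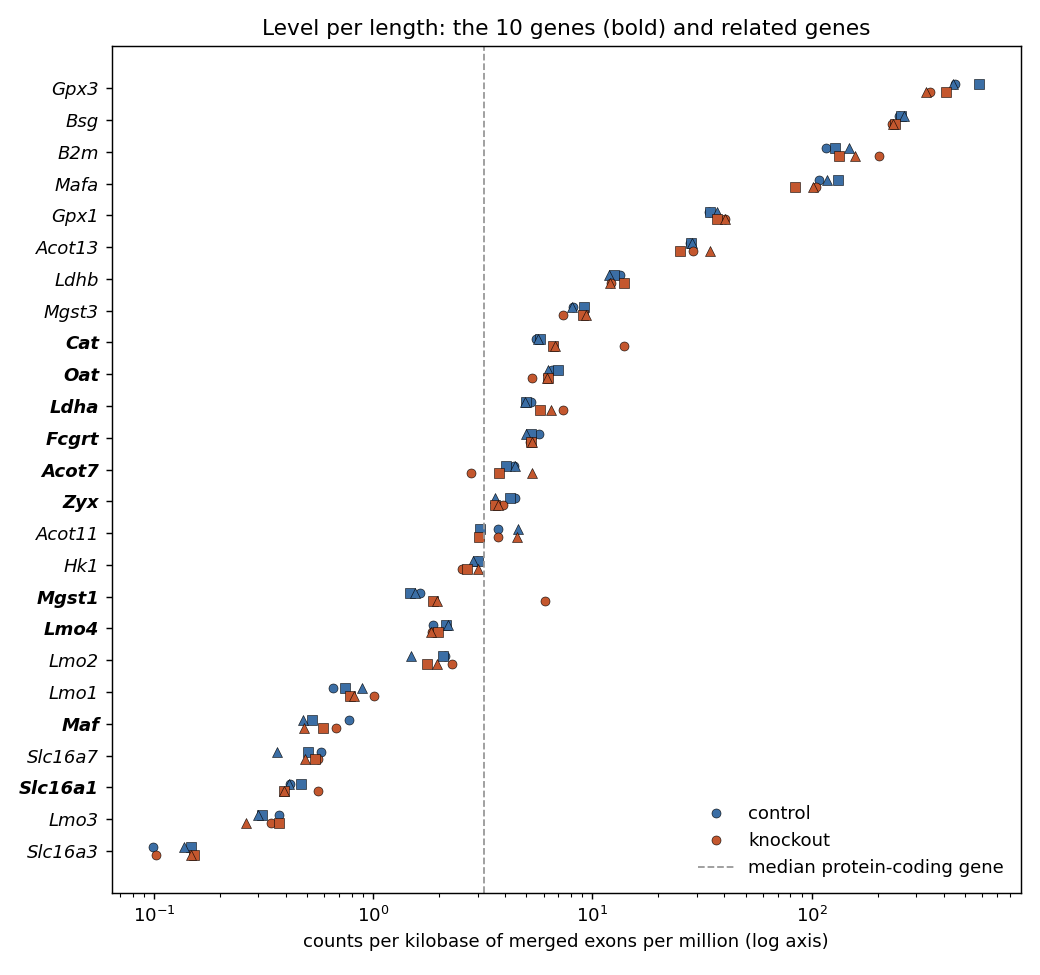
Level per length of the 10 genes (bold names) and related genes, as CPM per kilobase of merged exons on a log axis. Each point is 1 library (blue control, orange knockout, with circle, square and triangle for replicates 1, 2 and 3). The dashed line, at 3.22, marks the median of the protein-coding genes with at least 10 counts in total. Slc16a1 lies at the low end near Slc16a7, Ldha lies below Ldhb, and knockout replicate 1 stands apart for Cat and Mgst1.

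Across the 10 genes, 1 rose and 9 did not pass the test. Ldha was higher in knockout islets, by 1.28-fold; 4 of the 10 had a positive and 6 a negative log2 fold change, and none fell past the threshold. DESeq2 with an adjusted p under 0.05 called 2.19% of all genes tested, and 1.53% in the higher direction, and the count of 1 among 10 rests on Ldha alone. The median log2 fold change was -0.025 over the 10 genes and -0.0061 over all genes tested. For 3 of the 10 genes, Ldha, Cat and Mgst1, each knockout library was above each control. Over the 15811 genes with a mean of at least 50 normalized counts, groups did not overlap for 18% and were higher in knockouts without overlap for 9.42%. By edgeR's quasi-likelihood test 0 of the 10 genes passed an adjusted p of 0.05, where 0.115% of all genes did. At an unadjusted p under 0.05 edgeR counted 3 of the 10 genes (Ldha, Cat and Mgst1) and 9.48% of all genes, and DESeq2 counted 1 of the 10 and 9.03% of all genes. Without knockout replicate 1, DESeq2 called 0 of the 10 genes and 0.88% of all genes, and 2 of the 10 (Ldha and Cat) had an unadjusted p under 0.05, against 5.88% of all genes.

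**Figure D2:**
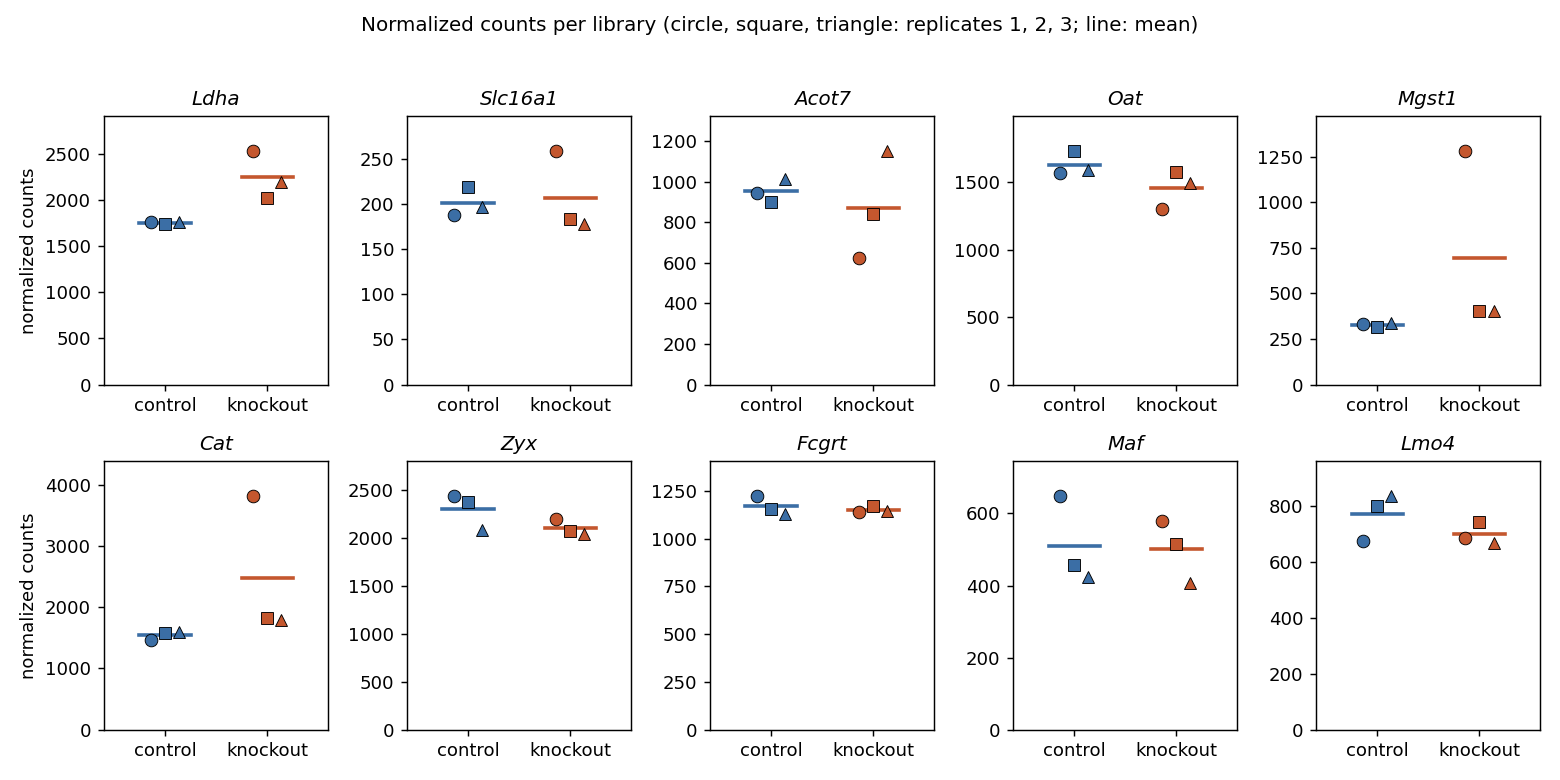
Normalized counts of the 10 genes in each library, in 1 panel per gene with the vertical axis starting at 0; symbols stand for replicates 1 (circle), 2 (square) and 3 (triangle) and lines for group means. All knockout libraries lie above all controls for Ldha, Mgst1 and Cat, and knockout replicate 1 lies far above the rest for Mgst1 (1282) and Cat (3815).

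Lactate metabolism came first. Ldha, which makes the subunit of lactate dehydrogenase that favours conversion of pyruvate to lactate (chromosome 7, 46841475 to 46855627, plus strand, GRCm38), had 1762, 1734 and 1759 normalized counts in the controls (replicates 1, 2 and 3, the order used throughout) and 2527, 2021 and 2197 in the knockouts. The controls lay within a CV of 0.872%, each knockout library lay above all of them, and knockout replicate 1 was the highest. From 3 libraries that control CV is itself uncertain. It lies below the spread that counting error alone would give on average at such counts. Ldha had a log2 fold change of 0.36 ± 0.10 (standard error, DESeq2 adjusted p = 0.0314), and the 95% confidence interval of the change spanned 11.4% to 48.0%. The call did not survive every setting. Without knockout replicate 1 the log2 fold change was 0.27 with a DESeq2 adjusted p of 0.329, and edgeR gave an adjusted p of 0.25. Ldha stayed higher in the knockout under all 14 alternatives and passed the threshold in 8 of them. Its adjusted p ran from 0.00472 to 0.329. It passed in 2 of the 6 fits that each left out 1 library. The other passes changed only the scaling or a filter of DESeq2 on the same libraries, so they are not independent checks.

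Upstream sequence of Ldha is shown because it is the single gene of the group that passed, with that of Slc16a1, its partner in lactate transport, and of Cat, whose groups did not overlap. Mgst1 met the same criterion, but 211 and 217 of the 250 bases of its entries lie in annotated exons, and they are not shown. KLF4 belongs to a family of zinc finger factors that bind CACCC boxes, and each run below ends just before the RefSeq start site or the first annotated exon base. The Ldha run ends at a RefSeq start site that lies inside the Ldha span given above, because the gene annotation used for coordinates starts further upstream. Capitals mark each CACCC, or its reverse complement GGGTG.
Ldha promoter, chr7:46845554-46845803, plus strand: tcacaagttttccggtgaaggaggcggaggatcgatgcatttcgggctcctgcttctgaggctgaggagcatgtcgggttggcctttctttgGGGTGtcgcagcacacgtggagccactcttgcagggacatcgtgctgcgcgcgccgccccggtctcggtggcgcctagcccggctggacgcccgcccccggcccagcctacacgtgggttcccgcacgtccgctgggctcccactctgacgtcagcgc
Slc16a1 promoter, chr3:104638414-104638663, plus strand: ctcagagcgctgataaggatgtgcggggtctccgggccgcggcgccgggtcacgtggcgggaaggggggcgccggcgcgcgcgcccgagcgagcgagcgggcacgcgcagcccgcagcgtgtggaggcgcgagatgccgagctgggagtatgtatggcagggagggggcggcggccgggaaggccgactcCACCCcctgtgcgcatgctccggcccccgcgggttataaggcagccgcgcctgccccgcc
Cat promoter, chr2:103485161-103485403, minus strand: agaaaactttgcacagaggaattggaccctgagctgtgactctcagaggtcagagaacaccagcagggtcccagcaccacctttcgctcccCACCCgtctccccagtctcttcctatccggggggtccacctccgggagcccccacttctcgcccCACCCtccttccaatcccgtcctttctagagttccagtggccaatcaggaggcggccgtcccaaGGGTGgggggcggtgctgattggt

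Sequences are from RefSeq on GRCm38.p6, read 5′ to 3′, and 9 of the 10 genes had at least 1 entry, with 13 entries in all. The search covered the 250 bases before each start site on both strands. In the entries shown, Ldha held 1 CACCC, Slc16a1 held 1 and Cat held 3. Ldha has another entry (chr7:46846832-46847081) that held neither CACCC nor ACGTG. In all, 10 of the 13 entries held at least 1 CACCC, against 52% of all 32851 promoter entries. All 3 copies in Cat lie within the longer CCCCACCC, which Oat also held, so 2 of the 13 entries had it, against 9.05% of all entries. ACGTG, the core of hypoxia response elements and of many E-boxes, was found at 5 positions in Ldha and 2 in Slc16a1 on either strand, some of them overlapping because CACGTG reads the same on both strands. Lmo4 also held it, at 1 genomic site that lies in 2 overlapping entries. Thus 4 of the 13 entries held ACGTG, against 16.6% of all entries. A match of letters is a description and does not show binding.

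Ldhb makes the other main subunit of lactate dehydrogenase, which favours the return of lactate to pyruvate. Its level per length, 12.6 CPM per kilobase, was above that of Ldha at 5.79. Ldhb averaged 2060 ± 57.4 normalized counts in the control group and 2080 ± 204 among knockouts (SD, n = 3 each). Its log2 fold change was 0.013 ± 0.099 (standard error, DESeq2 adjusted p = 0.986). Per length, Ldha made up 28.33%, 28.45% and 29.44% of Ldha plus Ldhb in control replicates 1 to 3. In knockout replicates 1 to 3 its share was 37.59%, 29.30% and 35.00%. Knockout replicates 1 and 3 lay above all controls and knockout replicate 2 lay just below the highest control. The means were 28.74% ± 0.607 and 33.96% ± 4.24 (SD, n = 3 each), and an exact two-sided permutation test gave p = 0.2, where 3 against 3 cannot go below 0.1. Without knockout replicate 1 the difference in the share was 3.41 percentage points in place of 5.22 (exact permutation p = 0.4).

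Slc16a1 (chromosome 3, 104638668 to 104658462, plus strand), the lactate and pyruvate carrier, did not differ beyond the spread. Controls held 188.5, 218.9 and 197.3 normalized counts of Slc16a1, and knockouts held 258.8, 183.6 and 177.6. Knockout replicate 1 was the highest of all libraries and the other knockout libraries were the lowest. The log2 fold change was 0.037 ± 0.23 (standard error, DESeq2 adjusted p = 0.982), with an interval from -24.5% to 39.3%, and it turned to -0.16 without knockout replicate 1. The related carriers Slc16a7 (MCT2) and Slc16a3 (MCT4) had mean levels per length of 0.507 and 0.131 CPM per kilobase, against 0.442 for Slc16a1. Bsg, basigin, the chaperone that brings MCT1 and MCT4 to the membrane, had a level per length of 246 on the same scale and a log2 fold change of -0.13 ± 0.068 (standard error, DESeq2 adjusted p = 0.47).

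Of the other genes of lactate and pyruvate handling, 1 of 21 tested rose and 1 fell in DESeq2, which called 1.53% of all genes higher and 0.657% lower. Gpd2, the mitochondrial glycerol-3-phosphate dehydrogenase that carries cytosolic reducing equivalents into the respiratory chain and so does the work that lactate dehydrogenase does elsewhere, was at 18642, 20356 and 14820 normalized counts in controls and at 9260, 12705 and 11321 in knockouts. Each knockout library lay below each control. Gpd2 fell by 0.69 ± 0.13 on the log2 scale (standard error, DESeq2 adjusted p = 6.78e-05; edgeR adjusted p = 0.172), and by 0.58 without knockout replicate 1 (DESeq2 adjusted p = 0.0099). Pdk4, the kinase that switches off pyruvate dehydrogenase, was at 5038, 5485 and 5281 normalized counts in controls and at 6037, 6236 and 6762 in knockouts. Its groups did not overlap, and it rose by a log2 fold change of 0.27 ± 0.079 (standard error, DESeq2 adjusted p = 0.0363), which did not pass without knockout replicate 1 (0.30, adjusted p = 0.0912) or in edgeR (adjusted p = 0.232). Of the 6 fits that each left out 1 library, Gpd2 passed in 6 and Pdk4 in 2.

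Hk1, a high-affinity hexokinase that beta cells are known to keep low, had a level per length of 2.84 CPM per kilobase. Its log2 fold change was -0.11 ± 0.089 (standard error, DESeq2 adjusted p = 0.745). Hk2 and Hk3, other high-affinity hexokinases, were singled out after their values were seen. Hk2 had 73.4, 46.08 and 46.68 normalized counts in controls and 124.7, 143.4 and 82.83 in knockouts, and Hk3 had 41.66, 28.8 and 25.46 against 90.67, 55.69 and 76.84. In both, each knockout library lay above each control. Their log2 fold changes were 1.08 ± 0.35 and 1.22 ± 0.41 (standard error), with DESeq2 adjusted p-values of 0.0797 and 0.0902 and edgeR adjusted p-values of 0.326 and 0.308. Without control replicate 1 both passed in DESeq2 (adjusted p = 0.0298 and 0.0491), and without knockout replicate 1 neither did (0.469 and 0.584).

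Cat and Mgst1, which detoxify peroxides and reactive lipids, had the largest log2 fold changes of the 10 genes, and both turned on a single library. Cat encodes catalase (chromosome 2, 103453849 to 103485160, minus strand), the peroxisomal enzyme that breaks down hydrogen peroxide and is known to be scarce in beta cells. Its normalized counts were 1466, 1580 and 1589 in controls and 3815, 1830 and 1798 in knockouts. Knockout replicate 1 was far above the rest, and the other knockout libraries lay close together just above the controls. The log2 fold change of Cat was 0.68 ± 0.37 (standard error, DESeq2 adjusted p = 0.481), with an interval from -2.46% to 164%, and it was 0.23 without knockout replicate 1 (adjusted p = 0.559).

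Mgst1, a membrane-bound glutathione transferase of the endoplasmic reticulum and outer mitochondrial membrane (chromosome 6, 138140316 to 138156755, plus strand), showed the same order. Controls held 333.3, 313.9 and 335.2 normalized counts and knockouts held 1282, 402.2 and 402.2. The first knockout library was 3.91 times the control mean, and the mean of the other knockout libraries was 1.23 times. The log2 fold change of Mgst1 was 1.09 ± 0.57 (standard error, DESeq2 adjusted p = 0.456), with an interval from -1.62% to 358%, and 0.30 without knockout replicate 1 (adjusted p = 0.817).

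Liver is rich in both enzymes, and the hepatocyte genes moved with them in knockout replicate 1. Alb, albumin, had 103.2, 213.1 and 157 normalized counts in controls against 51331, 1743 and 121.7 in knockouts. The summed level of the 15 hepatocyte genes was 129326, 8604 and 3983 normalized counts in knockout replicates 1 to 3, and each of the 15 was highest in knockout replicate 1. Of these genes 7 of the 8 given an adjusted p in DESeq2 rose, among them Serpina3k, Pzp and Plg. In edgeR 0 of 15 passed, and 14 had an unadjusted p under 0.05. Over all genes 1.53% were called higher in DESeq2. In edgeR 0.115% of all genes passed, and 9.48% had an unadjusted p under 0.05. Serpina3k, a liver-secreted protease inhibitor of the serpin family, was at 0 in all controls and in knockout replicate 3, at 287.7 in knockout replicate 2 and at 7530 in knockout replicate 1. Pzp, a liver-made protease inhibitor of the blood, was at 3.97 to 11.5 in controls and at 5831, 228.9 and 13.97 in knockout replicates 1 to 3. Plg, plasminogen, was at 1.98 to 5.76 in controls and at 2167, 94.9 and 13.97 in knockouts. In knockout replicate 3, 10 of the 15 hepatocyte genes were at or below the highest control and 5 (Plg, Pzp, Hpx, Ahsg and Tat) were above it, and the summed level of 3983 was above the highest control sum of 3938. In that library Cat and Mgst1 were 1.16 and 1.23 times the control mean. Knockout replicates 2 and 3 both lay above all controls for 3 of the 10 genes, Ldha, Cat and Mgst1, against 12.3% of all 15811 genes. The part of the liver transcripts in the Cat, Mgst1 and Ldha values of knockout replicate 1 was not tested.

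**Figure D3:**
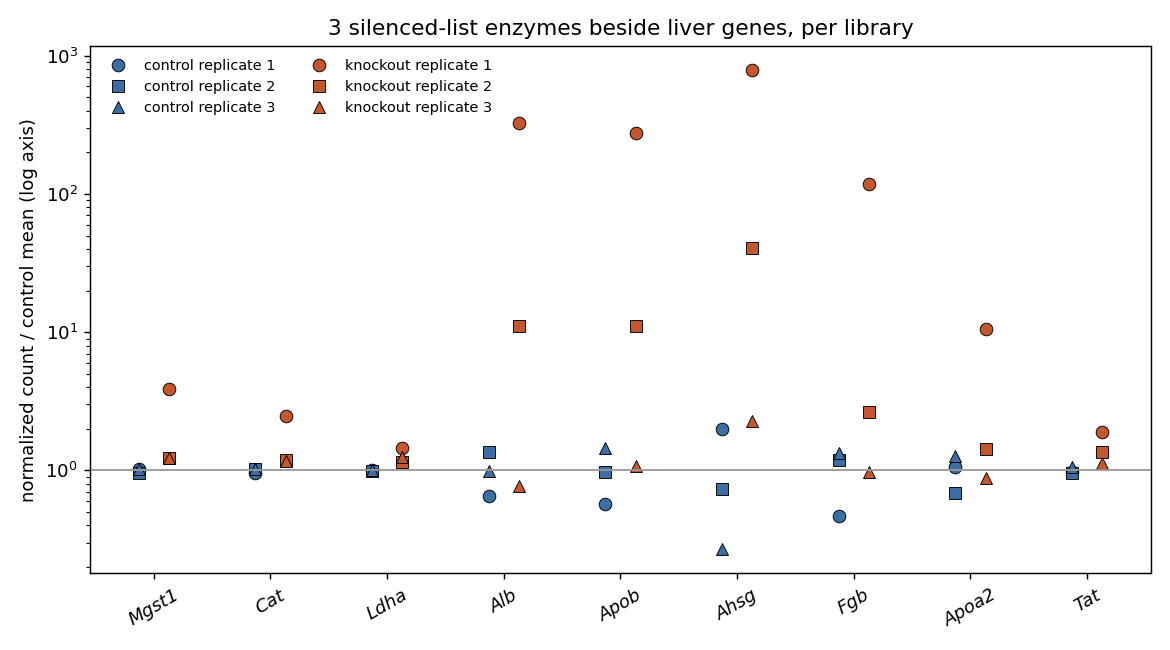
Normalized count of each gene divided by its control mean in each library, on a log axis, for Mgst1, Cat and Ldha beside 6 hepatocyte genes; blue points are controls, orange points knockouts, and shapes stand for replicates 1, 2 and 3. Knockout replicate 1 is highest for each gene, at 3.91 for Mgst1, 2.47 for Cat, 1.44 for Ldha and 325 for Alb.

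Of 24 genes tested among peroxide and glutathione enzymes 0 rose and 1 fell in DESeq2, 0 passed in edgeR, and 4 of the 25 in the fit had an unadjusted p under 0.05 in each tool. Over all genes the shares were 0.657% lower in DESeq2, 0.115% in edgeR, and 9.03% and 9.48% at an unadjusted p. Gpx3, the secreted glutathione peroxidase and the most abundant of the related genes plotted per length (428 CPM per kilobase), was at 83447, 110577 and 85890 normalized counts in controls and at 65374, 79332 and 61942 in knockouts. Its groups did not overlap, and it fell by 0.44 ± 0.12 on the log2 scale (standard error, DESeq2 adjusted p = 0.0234; edgeR adjusted p = 0.349). Without knockout replicate 1 Gpx3 had a log2 fold change of -0.40 and a DESeq2 adjusted p of 0.325, and it passed in 2 of the 6 fits that each left out 1 library. The nearest relatives of Mgst1 did not pass the test. Mgst3 averaged 973.7 ± 77.8 and 982.9 ± 126.5 normalized counts in the control and knockout groups (SD, n = 3 each; DESeq2 adjusted p = 0.991), and Mgst2 averaged 7.88 and 9.93 and was given no adjusted p. Gpx1, the cytosolic glutathione peroxidase, had a log2 fold change of 0.15 ± 0.082 (standard error, DESeq2 adjusted p = 0.507).

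Acot7 and Oat, enzymes of fatty acid and amino acid metabolism, were lowest in the library where Cat and Mgst1 were highest. Acot7 encodes a cytosolic acyl-CoA thioesterase that splits long-chain acyl-CoA into free fatty acid and coenzyme A (chromosome 4, 152178134 to 152271855, plus strand). Controls gave 945.2, 898.6 and 1016 normalized counts of Acot7, and knockouts gave 622.4, 842.6 and 1152. The knockout libraries thus held both the lowest and the highest value, on either side of the controls. Its log2 fold change was -0.13 ± 0.19 (standard error, DESeq2 adjusted p = 0.909), with an interval from -29.5% to 18.6%, and it turned to 0.065 without knockout replicate 1. Of the other acyl-CoA thioesterases, Acot13 had a level per length of 28.8 CPM per kilobase and Acot11 of 3.77, against 4.12 for Acot7.

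Oat, ornithine aminotransferase, the mitochondrial enzyme that links ornithine to glutamate and proline (chromosome 7, 132557478 to 132576398, minus strand), had 1569, 1731 and 1593 normalized counts in controls. Knockouts had 1300, 1574 and 1495. Knockout replicates 1 and 3 lay below each control, and knockout replicate 2 lay just above the lowest control. The log2 fold change of Oat was -0.16 ± 0.11 (standard error, DESeq2 adjusted p = 0.627), with an interval from -22.9% to 3.31%, and it was -0.089 without knockout replicate 1.

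Zyx and Fcgrt belong to the cell cortex and to protein traffic. Zyx, zyxin, a LIM protein of focal adhesions and actin fibres (chromosome 6, 42349630 to 42360213, plus strand), was at 2434, 2373 and 2085 normalized counts in controls and at 2192, 2067 and 2044 in knockouts. The groups overlapped only through control replicate 3, which lay between knockout replicates 1 and 2. Its log2 fold change was -0.13 ± 0.095 (standard error, DESeq2 adjusted p = 0.697), with an interval from -19.6% to 4.04%. An exon of Zyx overlaps one of a gene on the other strand, and the strand setting of the count is not given in the sources used here, which leaves its count uncertain. The same holds for other genes named here that overlap an exon of the other strand. Among them are Gpd2, Tgm2, Pdgfra, Dnmt3a, Hk1, Hk3, Slc16a7, Ldb1, Acot11, Krt7, Pzp, Plg and Ahsg. Among 18 genes of the zyxin family and focal adhesions 1 rose and 0 fell, against 1.53% and 0.657% of all genes. Tns1, tensin 1, which links integrins to actin, was at 9498, 7996 and 9212 normalized counts in controls and at 11086, 11182 and 11377 in knockouts, a log2 fold change of 0.33 ± 0.083 (standard error, DESeq2 adjusted p = 0.00621; edgeR adjusted p = 0.185). Its groups did not overlap, and it did not pass without knockout replicate 1 (0.34, DESeq2 adjusted p = 0.0912) or without knockout replicate 3, passing in 4 of the 6 such fits.

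Fcgrt, the neonatal Fc receptor that rescues immunoglobulin G and albumin from lysosomal breakdown (chromosome 7, 45092990 to 45103851, minus strand), was the most even of the 10 genes between groups. It was at 1221, 1156 and 1129 normalized counts in controls and at 1137, 1168 and 1145 in knockouts, and the knockout values all lay inside the control range. The log2 fold change of Fcgrt was -0.023 ± 0.096 (standard error, DESeq2 adjusted p = 0.976), with an interval from -13.6% to 12.1%. Its light chain partner B2m, beta-2 microglobulin, was at 10172, 11606 and 13650 normalized counts in controls and at 18127, 12125 and 13945 in knockouts, with overlapping groups and a log2 fold change of 0.32 ± 0.14 (standard error, DESeq2 adjusted p = 0.32).

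The transcription factor Maf and the LIM-only cofactor Lmo4 completed the list. Maf, a large basic leucine zipper factor also called c-Maf (chromosome 8, 115682942 to 115707794, minus strand), was at 647.7, 457 and 424.3 normalized counts in controls and at 579, 515.7 and 407.1 in knockouts. Maf had the widest spread of the 10 genes among controls, with a CV of 23.7%, and control replicate 1 was the highest library. Its log2 fold change of -0.026 ± 0.20 (standard error, DESeq2 adjusted p = 0.986), with an interval from -25.2% to 29.0%, turned to 0.18 without that library. Maf also overlaps a gene of the other strand in exon sequence, with the same uncertainty. Mafa, the large Maf factor of mature beta cells, had a level per length of 108 CPM per kilobase against 0.588 for Maf, and a log2 fold change of -0.31 ± 0.11 (standard error, DESeq2 adjusted p = 0.107).

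Lmo4, which bridges LIM-domain transcription complexes through Ldb1 (chromosome 3, 144188530 to 144205220, minus strand), was at 672.5, 800.7 and 833.8 normalized counts in controls and at 683.8, 741.5 and 666.6 in knockouts. The ranges overlapped because control replicate 1 lay among the knockout libraries. The log2 fold change of Lmo4 was -0.14 ± 0.13 (standard error, DESeq2 adjusted p = 0.799), with an interval from -24.1% to 8.38%. Per length of merged exons, Lmo4 at 1.99 CPM per kilobase was near Lmo2 at 1.95. This closeness depends on the length used. Merged exons and longest transcript are 3530 and 1669 bases for Lmo4, and 2166 and 1706 bases for Lmo2. Lmo2 and Ldb1 had log2 fold changes of 0.077 ± 0.18 and -0.049 ± 0.081 (SE), with DESeq2 adjusted p-values of 0.953 and 0.923.

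**Figure D4:**
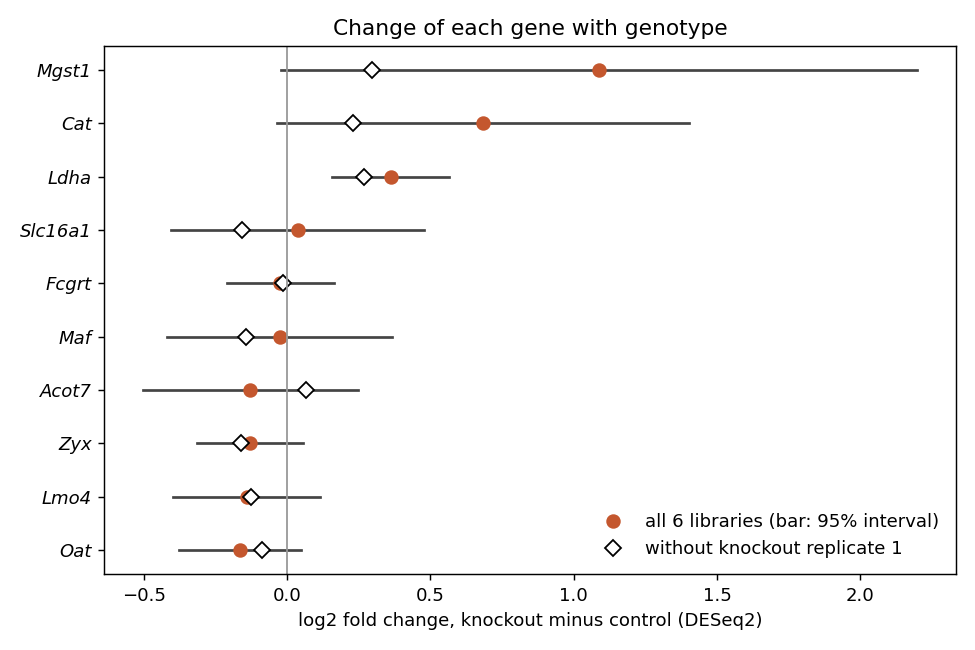
Log2 fold change of knockout against control for each of the 10 genes from DESeq2, with bars for the 95% confidence interval over all 6 libraries (orange points) and open diamonds for the fit without knockout replicate 1. Only the interval of Ldha lies wholly above 0, and the diamonds of Mgst1 (0.30) and Cat (0.23) lie far left of their points (1.09 and 0.68).

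How even a gene was between libraries varied over the list. The coefficient of variation was larger in knockout than in control libraries for 6 of the 10 genes. Mgst1 had the widest knockout spread, with a CV of 73.0% against 3.59% in controls, followed by Cat at 46.6% against 4.45% and Acot7 at 30.5% against 6.22%. Knockout replicate 1 was the highest of all 6 libraries for 4 genes (Ldha, Slc16a1, Mgst1 and Cat) and the lowest for 2 (Acot7 and Oat). The matching shares over all genes were not counted, so these counts only describe the 10 genes.

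A wider list held 14 further genes described as silenced in beta cells. It was chosen from general knowledge with earlier results of these data known. Of its genes 3 of 13 tested were higher and 0 lower in DESeq2, where 1.53% of all genes were called higher. In edgeR 1 of the 3, Pdgfra, passed, where 0.115% of all genes did. Pdgfra, the platelet-derived growth factor receptor of fibroblasts, was at 585.2, 628.8 and 625.9 normalized counts in controls and at 1157, 981.8 and 1223 in knockouts. Its groups were far apart. Pdgfra rose by a log2 fold change of 0.87 ± 0.13 (standard error, DESeq2 adjusted p = 3.06e-09; edgeR adjusted p = 0.0343) and by 0.85 without knockout replicate 1 (DESeq2 adjusted p = 2.08e-05). Tgm2, the protein crosslinking enzyme transglutaminase 2, was at 2559, 2688 and 2693 normalized counts in controls and at 3046, 3457 and 3684 in knockouts. It rose by 0.36 ± 0.095 (log2, standard error, DESeq2 adjusted p = 0.0121), and by 0.43 without knockout replicate 1 (adjusted p = 0.0015), but did not pass in edgeR (adjusted p = 0.196). Of the 6 fits that each left out 1 library, Tgm2 passed in 2, those without control replicate 3 and without knockout replicate 1, and Pdgfra passed in 6.

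Hsd11b1, which regenerates active glucocorticoid, followed the order seen for Mgst1. It was at 216.2, 147.8 and 193.1 normalized counts in controls and at 572.3, 264 and 271.4 in knockouts, a log2 fold change of 0.99 ± 0.30 (standard error, DESeq2 adjusted p = 0.0481; edgeR adjusted p = 0.357). Without knockout replicate 1 it was 0.53 with a DESeq2 adjusted p of 0.611, and it passed in 1 of the 6 such fits, that without knockout replicate 2. The median log2 fold change of the 13 genes was 0.081, against -0.0061 over all genes tested.

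Regulators of silencing gave no call with all 6 libraries in the reported model. Tet3, which oxidizes methylated cytosine, had a log2 fold change of 0.34 (DESeq2 adjusted p = 0.099) and passed in 2 of 14 alternatives, with the replicate block (0.35, adjusted p = 0.0233) and without control replicate 1 (0.45, adjusted p = 0.00329). It was singled out after its values were seen. Dnmt3a, the DNA methyltransferase known to help silence Ldha and Hk1 in beta cells as they mature, was at 16812, 15314 and 14129 normalized counts in controls and at 17754, 16724 and 17639 in knockouts, a log2 fold change of 0.17 ± 0.082 (standard error, DESeq2 adjusted p = 0.379). Rest, a repressor of neuronal genes that is itself silenced in beta cells, had a log2 fold change of -0.031 ± 0.17 (standard error, adjusted p = 0.982). The 5 lists with no gene past the DESeq2 threshold were grouped for that reason. They were hexokinases, acyl-CoA thioesterases, ornithine and proline metabolism, LMO family and partners, and silencing machinery. Of their 58 genes 0 passed in edgeR. At an unadjusted p under 0.05 were 15 of the 58 in DESeq2 and 13 in edgeR, where 9.03% and 9.48% of all genes were. Of these genes, 9 passed in at least 1 of the 14 alternatives, as did 4.35% of all genes in the fit that were not called in it. Over the 9 lists together 7 of 131 genes passed in DESeq2, 5 higher and 2 lower, where 2.19% of all genes did. In edgeR 1 passed, against 0.115% of all genes, and without knockout replicate 1 the count was 3, against 0.88%.

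Markers of other cells were read in the same fit, since fibroblasts, macrophages, duct and acinar cells can all carry transcripts that beta cells silence. For comparison, DESeq2 called 1.53% of all genes higher and 0.657% lower. Fibroblast and stellate genes rose in 6 of 9 cases in DESeq2 and 3 of 9 passed in edgeR, and the summed level of the list was 55150 to 73022 normalized counts in controls and 103651 to 110952 in knockouts. Col1a2, Col1a1 and Col3a1, the main fibrillar collagens, had log2 fold changes of 0.89, 0.96 and 0.78 (DESeq2 adjusted p = 2.28e-18, 1.14e-13 and 9.9e-10), and Pdgfra is itself on this list. Of the macrophage and myeloid genes 3 of 9 rose, C1qb, C1qc and Cd68, by log2 fold changes of 0.40, 0.44 and 0.53, while the sum of the list was 11653 to 12779 in controls and 12082 to 14200 in knockouts. The duct genes Muc1 and Krt7 rose, 2 of 8, by 0.66 and 0.28, and the duct sum was 37486 to 43341 in controls and 43961 to 49573 in knockouts. In edgeR 0 of the macrophage and 0 of the duct genes passed, with 4 of 9 and 2 of 8 at an unadjusted p under 0.05, against 9.48% of all genes. Acinar digestive enzyme genes summed to 586254 to 1184415 normalized counts in controls and to 1480586 to 2098514 in knockouts. None of the 10 acinar genes passed the DESeq2 threshold or edgeR's, although all 10 had an unadjusted p under 0.05 in both.

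Some endocrine markers fell. Of the alpha-cell genes 4 of 11 fell, among them Gcg, Slc38a5 and Ttr by 0.56, 0.55 and 0.57 on the log2 scale, and the alpha sum was 4128410 to 5938785 normalized counts in controls and 3061243 to 3760581 in knockouts. Of the beta-cell genes 1 of 11 fell, the transcription factor gene Nkx6-1 by 0.23 (DESeq2 adjusted p = 0.0314), and the beta sum overlapped between groups. In the immediate early and dissociation list 1 of 13 genes rose, Fosb, by 0.51. In edgeR 0 genes of the alpha, beta and immediate early lists passed, with 7, 3 and 2 of 11, 11 and 13 at an unadjusted p under 0.05, against 9.48% of all genes. The delta, PP, acinar, endothelial, pericyte and smooth muscle, Schwann, adipocyte, lymphocyte and erythroid lists were grouped because no gene in them passed in DESeq2. Of their 55 genes 0 passed in edgeR. At an unadjusted p under 0.05 were 18 in DESeq2 and 17 in edgeR, where 9.03% and 9.48% of all genes were. Of the 18 and the 17, 10 in each tool were the acinar genes. Adipocyte genes were nearly absent, summing to 1.89 to 16.5 normalized counts over the libraries. The part of these other cells in the Ldha difference was not tested.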

How the data were processed

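The deposited table gives raw, unnormalized read counts of each gene for 6 whole-islet libraries, and 0 of its columns were left unused. Per the submitters' processing notes, FastQC, STAR, featureCounts and DESeq2 were used with the build mm10; their versions and the strand setting are not given in the sources used here. All 55536 gene identifiers and symbols matched GENCODE M21 (GRCm38), which gave coordinates and exon lengths.

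Following the series' design text, DESeq2 1.42.0 (R 4.3.3) was fitted to all 6 libraries with genotype as the only term, on genes with at least 10 counts in total, with default Cook's distance and independent filters. Normalized counts are counts divided by DESeq2 size factors, and p-values were Benjamini-Hochberg adjusted over all genes. The threshold was 0.05. Intervals are normal 95% intervals of the log2 fold change. Levels per length used library totals and merged exons. Alternatives were edgeR 4.0.16 (quasi-likelihood, TMM), TMM factors in DESeq2, other filters, a replicate block and each library left out. Scaling by library totals was chosen after seeing the data. The fits were tested on simulated data.

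The 10 genes and all lists were chosen with earlier results of these data known. Named were all 10 genes, up to 4 called genes per pathway list, fixed relatives of the 10 genes (Ldhb, Slc16a3, Slc16a7, Bsg, Hk1, Mgst2, Mgst3, Dnmt3a, Rest, Mafa, Lmo2, Ldb1, B2m, Gpx1) and up to 3 called genes per marker list. Alb, Acot11, Acot13, Tet3, Hk2, Hk3, Hpx and the other plotted genes were added after their values were seen. Some genes that the rule names are not reported here. At the depth of these libraries (101277200 to 110243918 counts), counting error is part of the spread of the 10 genes, most for those with the fewest counts.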

Additional observations from a re-analysis of the deposited data

How the results depend on the processing

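The single call among the 10 genes was not kept by every test or every subset of libraries. The count of called genes among the 10 was 1 in the fit as reported and 0 in edgeR, 0 with the replicate block and 0 to 1 when a library was left out. Ldha passed in 2 of 6 fits that each left out 1 library (those without control replicate 3 and without knockout replicate 2). Ldha had a log2 fold change of 0.36 as reported, 0.27 without knockout replicate 1, and from 0.35 to 0.43 in the other fits that left out a library. Its DESeq2 adjusted p was 0.0955 without control replicate 1, 0.161 without control replicate 2, 0.329 without knockout replicate 1, 0.124 without knockout replicate 3 and 0.058 with the replicate block. Over all genes, 389 passed (272 higher, 117 lower), against 29 in edgeR (24 higher, 5 lower), and from 153 (without knockout replicate 1) to 952 (without control replicate 3) when a library was left out. Over the pathway lists 7 genes passed, against 1 in edgeR and from 3 (without knockout replicate 1) to 13 (without control replicate 3) with a library left out. Without knockout replicate 3 it was 4. The causes were not tested. Of 140 values of the 10 genes under the alternatives, 128 had the same sign and call, 6, all of Ldha, no longer passed, and 6 changed sign, none of them past the threshold. Over the fits that each left out 1 library, Slc16a1 ranged from -0.16 (without knockout replicate 1) to 0.13 and was -0.011 without control replicate 1. On the same log2 scale Acot7 ranged from -0.38 to 0.065 (without knockout replicate 1), Fcgrt from -0.047 to 0.0085 (without control replicate 1), and Maf from -0.14 to 0.18 (without control replicate 1), with 0.10 without knockout replicate 3. The Ldha share kept its direction under its alternatives, from 3.41 to 7.55 percentage points.

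As to pairing, deviations of libraries with equal numbers had a mean correlation of -0.0321 (lowest -0.0587, highest 0.0105) across 15811 genes, so these libraries share only a number. With the replicate block 405 genes passed, 281 of them shared with the fit without it, and 8 pathway genes in place of 7, with Pdk4 no longer among them. Longest transcripts in place of merged exons moved the level of Ldha from 5.79 to 10.6 CPM per kilobase, of Lmo4 from 1.99 to 4.20, of Mgst1 from 2.44 to 4.20 and of Zyx from 3.91 to 6.61. Ldha then came before Cat (7.38) in the order of levels, and 6 of the 10 genes were still above the median.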
